A study of Homo sapiens with 2 samples.

Results

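The miR-371 to miR-373 cluster was examined in RNA of glioblastoma cells labelled as exosomal, by every probe named for miR-371a, miR-371b, miR-372 or miR-373, either arm. This gave 8 of the 2632 miRNA probes on the array, 2 for each of 4 hairpins. The cluster was chosen by the measured brightness of hsa-miR-371a-5p on both arrays, so the levels of the members are given as a description, with no test.

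The source was the glioblastoma line U87MG delta EGFR, and exosomes are small membrane vesicles shed by cells into the culture medium. By title the samples are exosomes, but the protocol describes extraction of RNA from the cells; the titles were followed here, and the labels do not settle the conflict. There were 2 groups, each with 1 array: non-treated control cells, and cells given boron neutron capture therapy (BNCT), in which a boron compound taken up by cells is split by thermal neutrons. Both were grown in DMEM with 10% fetal bovine serum depleted of exosomes. A single treatment text stands on both samples, and it was read as describing the BNCT group: 25 ppm of the p-boronophenylalanine-fructose complex for 2 hours, thermal neutrons, and medium collected on day 3 after irradiation. What handling the control cells had, and when their medium was collected, is not given separately, so compound, neutrons, handling and collection time cannot be told apart. With 1 array a group no replicates exist, so no test was run and no p-value is given. The amount of vesicles in the medium and the amount of a miRNA per vesicle also cannot be told apart.

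In human embryonic stem cells and germ cell tumours this cluster is a typical source of abundant miRNA. Each hairpin is cut to a 5p and a 3p arm, and the arm loaded into an Argonaute protein recognises its targets mainly through the seed, bases 2 to 8. The 3p arms are the better studied products: miR-372-3p and miR-373-3p repress the growth inhibitor LATS2 in testicular germ cell tumours, and miR-371a-3p in serum is used as a marker of those tumours. The 5p arms are less often assigned a role.

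The 8 mature sequences are shown 5′ to 3′ because the arms split into separate seed groups, and capitals mark the seed. They are from RefSeq (GRCh38.p14), where all 8 members were matched by name.
miR-371a-5p: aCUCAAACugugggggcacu
miR-371b-5p: aCUCAAAAgauggcggcacuuu
miR-372-5p: cCUCAAAUguggagcacuauucu
miR-373-5p: aCUCAAAAugggggcgcuuucc
miR-371a-3p: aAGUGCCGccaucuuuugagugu
miR-371b-3p: aAGUGCCCccacaguuugagugc
miR-372-3p: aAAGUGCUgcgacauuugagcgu
miR-373-3p: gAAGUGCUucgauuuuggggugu
The seeds of miR-371b-5p and miR-373-5p are the same, and so are those of miR-372-3p and miR-373-3p. miR-371a-5p shares its first 7 bases with miR-371b-5p and with miR-373-5p, while the first 8 bases of miR-371b-5p and miR-373-5p are the same.

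The 4 hairpins lie within 1099 bases of chromosome 19. MIR371A is at chr19:53787675-53787741 on the plus strand, MIR371B at chr19:53787677-53787742 on the minus strand, MIR372 at chr19:53787890-53787956 and MIR373 at chr19:53788705-53788773, both on the plus strand. Within its annotated limits the long non-coding RNA gene LOC124904767 covers the first 3 of them, and no other gene of the RefSeq table overlaps MIR373. The table used here gives neither exons nor strand for LOC124904767. The nearest hairpin of the placental miRNA cluster before it, MIR519A2, ends 25244 bases away, and the protein-coding gene NLRP12 begins 4810 bases after it. MIR371A and MIR371B are opposite strands of the same 65 bases. Their hairpins are shown with the 5p arm in capitals.
MIR371A: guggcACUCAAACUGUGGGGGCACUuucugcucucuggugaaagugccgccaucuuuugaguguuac
MIR371B: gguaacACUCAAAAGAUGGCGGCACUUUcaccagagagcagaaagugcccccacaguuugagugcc
The arms are therefore complementary across the strands. miR-371a-5p pairs over 20 unbroken bases with miR-371b-3p, and miR-371b-5p over 21 with miR-371a-3p.

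On both arrays 3 of the 4 5p arms and none of the 4 3p arms were above the detection limit. A probe counted as detected when its spot median, the median Cy5 brightness of its spot in scanner units, exceeded the mean + 2 SD of the blank spots after the top and bottom 5% of them were set aside. These limits were 272.0 units for control and 267.5 for BNCT, and the blanks themselves averaged 258.1 and 254.9. The 3 detected members were the same on both arrays, 3 of 8 each, beside 28.6% of all probes in control, 36.2% in BNCT and 23.9% on both. At mean + 5 SD 2 members passed in control, beside 13.5% of all probes, and 3 in BNCT, beside 19.9%. Above the 95th percentile of the spots that carry no probe 2 members passed on each array, beside 8.7% and 14.6% of all probes. With the SD of all blanks 3 passed on each array, beside 23.9% and 32.1%, and the authors' deposited table lists the same 3, beside 28.9% and 36.4% of all probes. Over the whole array 34.8% of 887 5p probes and 21.5% of 907 3p probes were detected in control, and 42.5% and 28.2% in BNCT.

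hsa-miR-371a-5p was the brightest member. Its spot read 360.1 units on the control array, with a spot error of 8.43 units, and 428.1 on the BNCT array, with a spot error of 15.2. The spot error is built from the blank spots' SD and the coefficient of variation of the spike control spots, and it covers noise within an array only. miR-371a-5p ranked 146th of the miRNA probes in control and 147th in BNCT, in both cases within the top 5.59%. The 8 miRNA spots next to it were dimmer, from 254.0 to 283.1 units in control and from 255.3 to 277.9 in BNCT. The scanner's own background value at the miR-371a-5p spot was high, however, at 332.6 units in control and 447.4 in BNCT, where it exceeded the spot.

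hsa-miR-371b-5p, cut from the opposite strand, was second. It read 338.4 units in control (spot error 7.89) and 382.5 in BNCT (spot error 12.0), at rank 186 and rank 208. The 5 spots next to it did not pass 268.1 units on either array.

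hsa-miR-373-5p was the dimmest of the 3. It read 287.3 units in control (spot error 7.07) and 301.5 in BNCT (spot error 7.30), at rank 409 and rank 437. It was under the stricter limit of mean + 5 SD on the control array (292.8 units) and above it on the BNCT array (286.3 units). The 112 spots that carry no probe were themselves brighter than the blanks, with means of 301.3 units in control and 289.0 in BNCT. Of these, 104 were brighter than miR-373-5p in control and 16 in BNCT, and none was brighter than miR-371a-5p or miR-371b-5p on either. The dimmest spot without a probe read 274.3 units in control, above the detection limit of 272.0, and 265.6 in BNCT, under the limit of 267.5. In control every spot without a probe thus passed the limit, so passing it does not set miR-373-5p apart from such spots.

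The remaining 5 members lay at the level of the blanks on both arrays. hsa-miR-371a-3p, the serum marker of germ cell tumours, read 252.8 units in control and 254.7 in BNCT. hsa-miR-372-3p, which acts on LATS2, read 259.3 and 253.9, and hsa-miR-373-3p, with the same seed, read 260.4 and 257.8. hsa-miR-371b-3p read 253.9 and 261.6, the largest of these values over a blank mean, by 6.70 units or 1.07 blank SD in BNCT. hsa-miR-372-5p, the one 5p arm not detected, read 257.3 and 257.5. None of the 5 was above the limit on either array, so no difference between the groups is given for them, and a level under the blanks' spread was not detectable here.

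**Figure D1:**
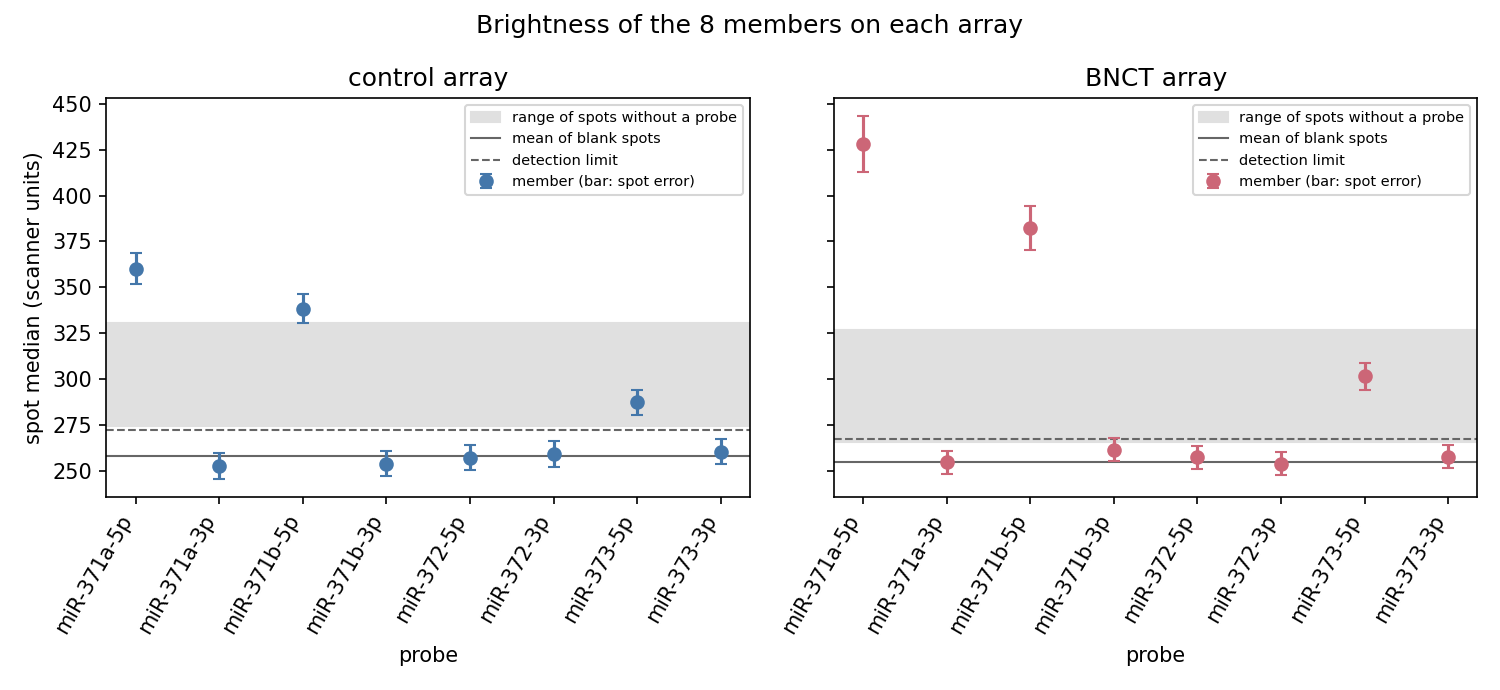
Spot median in scanner units (vertical axis) of the 8 members (horizontal axis) on the control array (left) and the BNCT array (right), 1 spot each with its spot error, over the blank mean (line), the detection limit (dashed) and the range of spots without a probe (grey band). miR-371a-5p and miR-371b-5p lie above the band on both arrays, miR-373-5p lies inside it, and the other 5 members lie under the limit.

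Within a hairpin the gap in spot brightness between the arms was widest for miR-371a. Probes differ in how they bind, so such a gap describes spots and is not a ratio of miRNA amounts. Its 5p spot was brighter than its 3p spot by 107.4 units in control and by 173.3 in BNCT, a gap reached by 7.34% and 8.78% of the 831 hairpins with both arms on the array. For miR-371b the gap was 84.6 and 120.9 units, and for miR-373 it was 26.8 and 43.6. The spots of both miR-373 arms are next to each other on the array, and the 3p spot beside the detected 5p spot stayed under the limit. For miR-372 the arms differed by -2.03 units in control and 3.53 in BNCT, within the spread of the blanks. A pattern with the 5p arm detected and the 3p arm not, on each array, was found for 3 of the 4 hairpins here and for 16.2% of the 831. miR-371a is among the 3, and the brightness of its 5p arm was used to choose the cluster. Its wide gap and its place in this count therefore follow in part from that choice, and the shares are given as description only. In the pairs of complementary arms, miR-371a-5p was detected and its opposite miR-371b-3p was not, and miR-371b-5p was detected and its opposite miR-371a-3p was not.

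**Figure D2:**
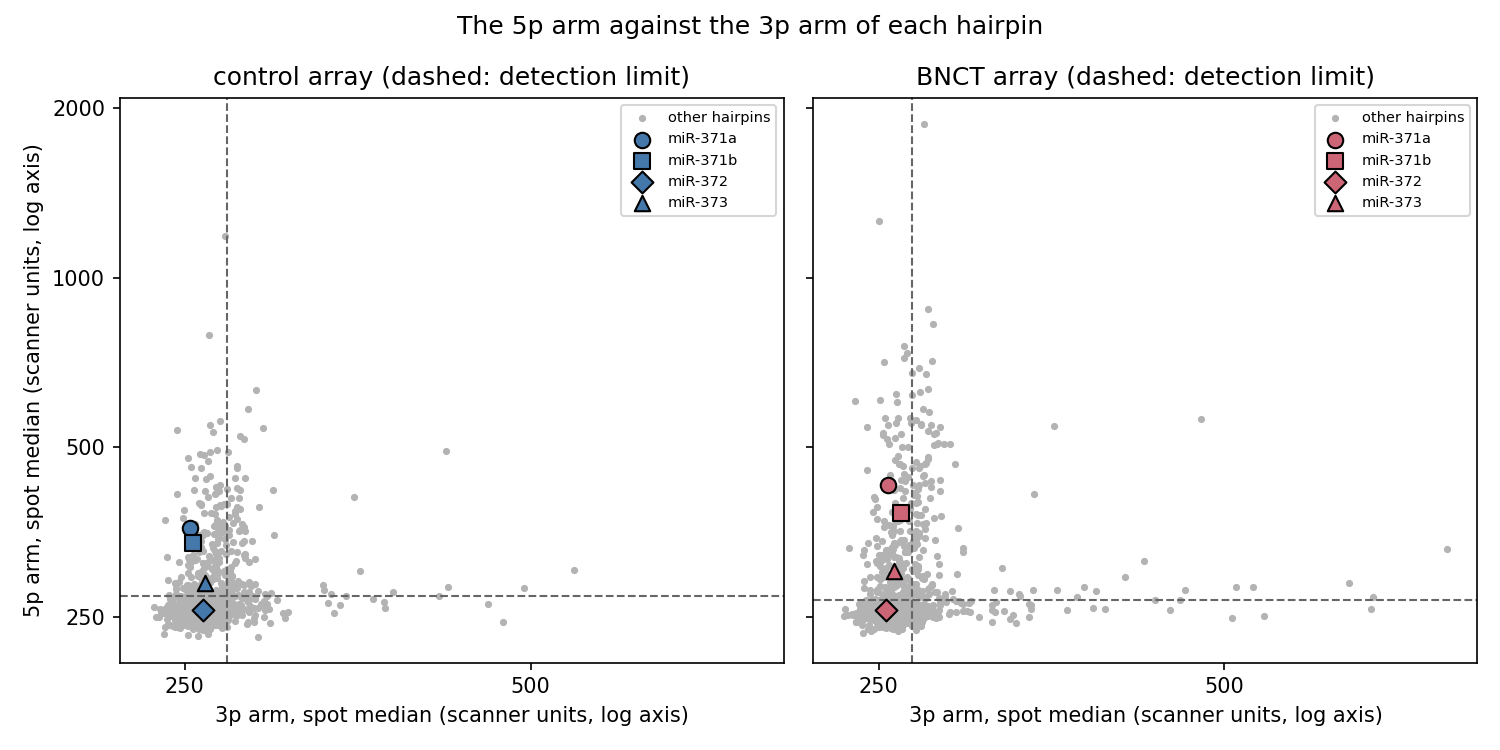
Spot median of the 5p arm (vertical, log axis) against that of the 3p arm (horizontal, log axis), in scanner units, for the 831 hairpins with both arms on the array, with the detection limits dashed. miR-371a, miR-371b and miR-373 lie above the 5p limit and to the left of the 3p limit on both arrays, and miR-372 lies under both limits.

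Brightness over the blanks was higher on the BNCT array for all 3 detected members, by about the median amount of the probes detected on both arrays. miR-371a-5p lay 102.0 units over the blank mean in control and 173.1 in BNCT, a ratio of 1.70 (spot error 0.20). miR-371b-5p lay 80.3 and 127.6 units over it, a ratio of 1.59 (spot error 0.22). miR-373-5p lay 29.1 and 46.5 units over it, a ratio of 1.60 (spot error 0.46). On the log2 scale these ratios are 0.76, 0.67 and 0.68, and the median over the 630 probes detected on both arrays, computed in the same way, was 0.72. The authors' deposited values, which were scaled to a median of 25 units on each array, were 81.8 in control and 112.3 in BNCT for miR-371a-5p. For miR-371b-5p they were 64.4 and 82.7, and for miR-373-5p 23.4 and 30.2.

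After background correction on the blank spots and quantile normalization, none of the 3 differed between the arrays by more than its spot error. The difference, BNCT minus control on the log2 scale, was -0.01 for miR-371a-5p (levels 7.50 and 7.50, spot error 0.13). It was -0.10 for miR-371b-5p (7.27 and 7.16, spot error 0.13) and -0.07 for miR-373-5p (6.44 and 6.38, spot error 0.18). The median of the 3 was -0.07, and that of all 630 probes was -0.02 with an interquartile range from -0.13 to 0.12. No member reached the 2-fold line in either direction, and among the 630 probes 0% did. A difference beyond its spot error was found for 0 of the 3 members and for 41.1% of the 630 probes, and all 3 members were lower in BNCT, as were 54% of the probes. Quantile normalization gives both arrays 1 distribution of levels, so these values are relative to the rest of the array, and the group cannot be told apart from the slide.

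The signs depended on the scaling and on the background, while the place of the members within the array mostly did not. Without normalization the differences were 0.58 for miR-371a-5p, 0.48 for miR-371b-5p and 0.34 for miR-373-5p, around a median of 0.49 over the 630 probes. When the scanner's background column was used, miR-371a-5p was at -0.21 and miR-373-5p turned to 0.24. That column read 332.6 units at the miR-371a-5p spot in control and 447.4 in BNCT, where it was above the spot itself. The 3 members lay inside the interquartile range of the 630 probes in 11 of 12 settings, the exception being miR-373-5p with that column.

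**Figure D3:**
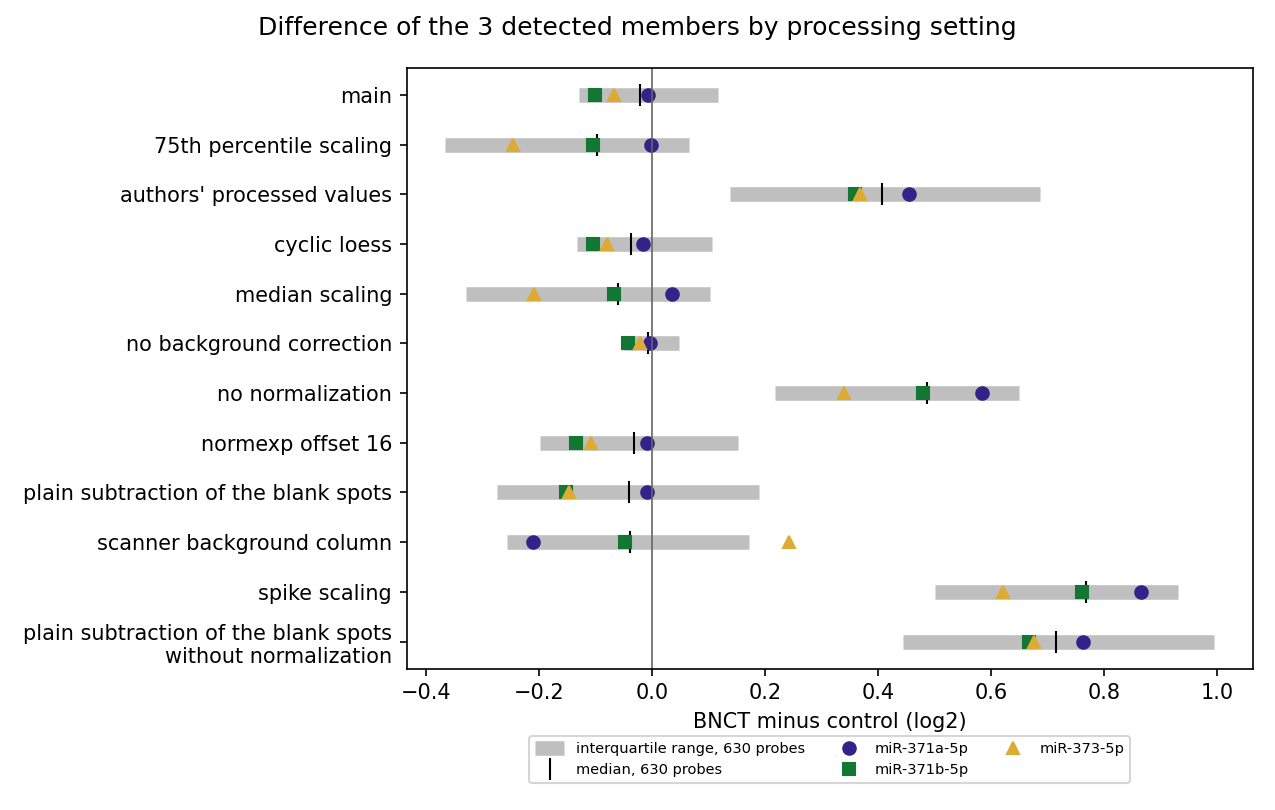
Difference between the arrays, BNCT minus control on the log2 scale (horizontal), for miR-371a-5p, miR-371b-5p and miR-373-5p under each processing setting (vertical), with the median and interquartile range of the 630 probes detected on both arrays. The members move with the median of these probes from setting to setting, by construction where settings differ by a constant alone. miR-373-5p leaves the interquartile range with the scanner background column.

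The related stem cell cluster of chromosome 4, miR-302 with miR-367, likewise had no 3p arm above the limits. Of the 12 miR-302 and miR-367 probes, a list made by name, 1 was detected on each array, beside 28.6% and 36.2% of all probes. The list also holds miR-302e and miR-302f, whose positions were not looked up, so its counts are not of the cluster alone. It was miR-302c-5p, at 296.3 units in control and 313.6 in BNCT, with a normalized difference of -0.17 (spot error 0.16). The other 11 stayed below both limits, among them miR-302a-3p at 265.3 and 253.3 units and miR-302d-5p at 256.9 and 265.1. miR-302a-5p read 261.2 and 259.6 units and miR-302f 258.8 and 259.5.

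Probes that share a seed with a member were mostly under the limits, as were most probes of the array. The seed of miR-372-3p and miR-373-3p is found in 10 other probes of the array, from the miR-302 and miR-520 families. Of these 0 were detected in control and 1 in BNCT, beside 28.6% and 36.2% of all probes. The detected probe was miR-520e-3p, at 263.6 and 271.5 units, in BNCT within the range of spots without a probe. miR-520b-3p read 262.9 and 265.9. The seed of miR-371b-5p and miR-373-5p is found in 1 other probe, miR-616-5p, which stayed below both limits (265.6 and 263.7 units). The miR-17 and miR-106 family holds growth-promoting miRNAs whose seed is that of miR-372-3p and miR-373-3p shifted by a base. In this family 0 of 6 were detected on either array, beside the same shares of all probes. Its brightest values were 265.6 units for miR-20a-5p in control and 252.2 for miR-93-5p in BNCT, and miR-106b-5p and miR-20b-5p read 259.2 each in control.

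Markers of cell types were checked beside these values, against a detected share over all probes of 28.6% (control), 36.2% (BNCT) and 23.9% (both). Of 6 miRNAs typical of glial and mesenchymal lines, 2 were detected in control and 1 in BNCT. miR-24-3p was bright on both arrays, at 620.0 and 915.6 units, and miR-23a-3p passed in control only, at 280.5 and 259.0. The other 4 did not pass either limit, among them miR-21-5p at 260.2 and 255.7 units. All 5 markers of pluripotent and germ cells, miR-302a-3p to miR-302d-3p and miR-367-3p, were under the limit, with a highest value of 265.3 units in control and 253.3 in BNCT. These 5 are not a separate check, since they are also on the miR-302 and miR-367 list above. Those of miR-302 were also counted among the probes with the seed of miR-372-3p. Of 5 placental miRNAs 3 were detected on each array but only miR-498-5p on both, at 308.6 and 373.5 units. miR-519d-3p and miR-525-5p passed in control only, and miR-517a-3p, whose probe also names miR-517b-3p, and miR-518b in BNCT only. Of 5 blood and serum miRNAs 0 were detected in control and 3 in BNCT, all near that array's limit of 267.5. These were miR-223-3p (273.8 units), miR-486-5p (270.5 units) and miR-144-3p (268.9 units). miR-223-3p read 268.2 units in control, under the higher limit of 272.0 there. Spots without a probe read from 274.3 to 330.5 units in control and from 265.6 to 326.6 in BNCT. Within these ranges lay all detected markers but miR-24-3p on both arrays and miR-498-5p in BNCT. What part these cell types had in the levels of the members was not tested.

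Of the 3 detected members 2 share a run of G. The rule did not use sequence, but it used the brightness of miR-371a-5p, which is among the 2. As the detected share rose with the run of G (below), the shared run is not independent of that choice or of detection. It is given as description only. The sequences above show GGGGG in miR-371a-5p and in miR-373-5p, and the one detected member of the chromosome 4 cluster carries it too, as its sequence with the seed in capitals shows.
miR-302c-5p: uUUAACAUggggguaccugcug
Over the 2337 probes with a single name that matched a RefSeq mature sequence, of 2616 with a single name, the detected share was higher the longer the run of G. It was 15.1% in control and 18.8% in BNCT for probes with a run of 0 or 1, 16.4% and 21.7% with 2, and 42.1% and 57.1% with 3. With 4 it was 74.3% and 85.4%, and among the 72 probes with 5 or more it was 94.4% and 97.2%. These are shares of probes on 1 array each, and probes that share a base composition are not independent.

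Set against their own class by run of G, the members were not alike. Among the 72 probes with 5 or more G in a row miR-371a-5p ranked 29th in control and 30th in BNCT, at 360.1 and 428.1 units against class medians of 339.0 and 409.0. miR-373-5p ranked 58th and 65th there, and miR-302c-5p 53rd and 59th. miR-371b-5p has no run of G longer than 2, a class of 954 probes with medians of 259.3 and 257.0 units, and it ranked 14th of them on both arrays. miR-372-5p, in the same class, ranked 541st and 457th. miR-373-3p has 4 G in a row, where 72.8% of 206 probes were detected on both arrays, but it was under the limit on both and ranked 187th and 195th. The part of base composition in the signal of the members was not tested.

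**Figure D4:**
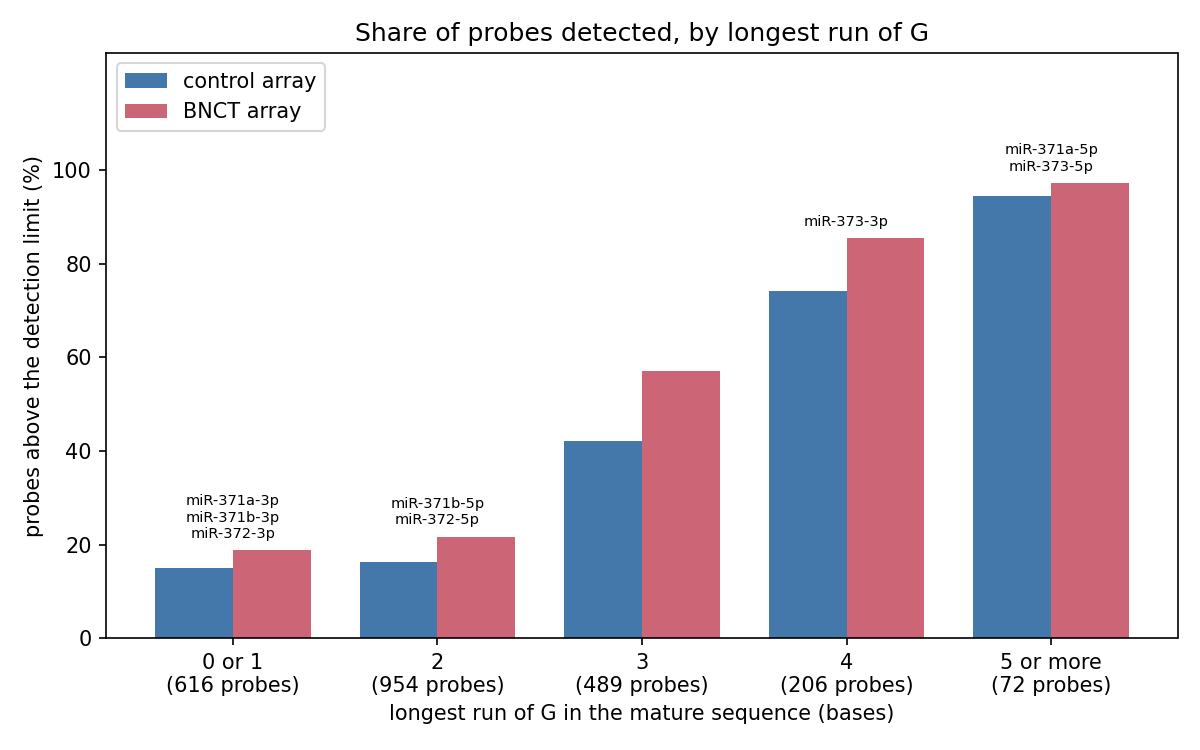
Share of probes above the detection limit in percent (vertical) by the longest run of G in the mature sequence (horizontal), on each array, with the members of each class named above its bars. The share runs from 15.1% and 18.8% to 94.4% and 97.2%, miR-371a-5p and miR-373-5p are in the last class, and miR-371b-5p is in the class with a run of 2.

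The probes most like the detected members were found by the sum of the absolute differences in normalized log2 level over the 2 arrays. For miR-371a-5p these were miR-6824-5p, with a sum of 0.06, miR-1229-5p with 0.07 and miR-6722-3p with 0.08. Their spots read 364.8, 359.6 and 355.0 units in control and 429.9, 417.9 and 425.2 in BNCT. The probe nearest to miR-371b-5p was miR-3178, with a sum of 0.04, and the one nearest to miR-373-5p was miR-503-3p, with 0.02. The longest run of G was 5 in miR-1229-5p and 4 in each of the other 4. These probes were matched on level, and the detected share rose with the run of G. Their runs are therefore not a separate likeness. miR-371b-5p itself has a longest run of 2, against 4 in miR-3178. With 2 arrays this likeness rests on 2 values a probe.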

How the data were processed

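Total RNA, exosomal by the sample titles, was labelled with Cy5 and hybridised to Toray 3D-Gene arrays, 1 per group, per the labels' protocols, which also state extraction from cells with a miRNeasy kit, against the titles. The deposited scanner files give, per the file headers, median spot intensity and a background median for Cy5, joined over 3 scanner gains by fitted lines; their values were not scaled between arrays. The authors' deposited table holds intensity on a linear scale. Each listed value equals the spot median minus 258.1 (control) or 254.9 (BNCT), divided by 1.25 or 1.54, with a largest residual of 1.23e-06, which settles scale, centring and direction. The scaling software is unnamed in the sources used here.

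Spot medians were background-corrected in R 4.3.3 with limma 3.58.1 (nec on the 312 blank spots, offset 50), put on the log2 scale and quantile-normalized over 2632 miRNA probes. On the control array 2 flagged spots, no members, were left out. The spike control CV was 4.70% and 8.03%. The arrays' number limits the precision. Differences are BNCT minus control, and the rule of size was 2-fold. The procedure was tested on simulated data with planted changes of 2-fold or more, in probes clearly above the blanks. That test does not bear on differences as small as those of the members. Sequence classes were counted in Python 3.11.15.

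The members and lists were chosen with earlier results of these data known. Named miRNAs were all 8 members, detected members of the chromosome 4, shared-seed and miR-17 lists with up to 4 undetected ones by level, and the probes nearest to the detected members (3 for miR-371a-5p, 1 for each other). Of the cell type marker lists the detected members are named too, a choice made after their values were seen. Probes with several names or no RefSeq match were not used for the sequence classes, which were added after the values were seen. Alternatives were other background corrections, scalings, limits and the authors' values.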

Additional observations from a re-analysis of the deposited data

How the results depend on the processing

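The 3 detected members were the same under mean + 2 SD of all blank spots and in the authors' deposited table. That table is not a separate check, because its values are the same spot medians less nearly the same blank mean, rescaled. With mean + 5 SD 2 members were detected in control and 3 in BNCT, and with the 95th percentile of spots without a probe 2 on each array, miR-373-5p being the one lost. Over 11 other settings, 1 of them chosen after seeing the data, the difference moved by more than the spot error in 5 for miR-371a-5p, 4 for miR-371b-5p and 6 for miR-373-5p. In the order miR-371a-5p, miR-371b-5p, miR-373-5p, the differences on the log2 scale were 0.46, 0.36 and 0.37 in the authors' values. They were 0.58, 0.48 and 0.34 when the arrays were not normalized, 0.87, 0.76 and 0.62 when scaled to the spike controls, and 0.76, 0.67 and 0.68 under the added setting, plain blank subtraction without normalization. The medians of the 630 probes were 0.41, 0.49, 0.77 and 0.72. With 75th percentile scaling miR-373-5p was -0.24. With the scanner's background column miR-371a-5p was -0.21 and miR-373-5p 0.24, and the cause was not tested. No paired analysis was possible because each group has 1 array. Signal over background limits all values: 5 of the 8 members could not be told from the blanks.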
